A study of Arabidopsis thaliana with 2 samples.

Results

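Samples labelled as rosette leaves of Arabidopsis thaliana were used to follow 4 genes of protein folding and quality control in the endoplasmic reticulum (ER). They are ATERDJ2B (AT4G21180, chromosome 4), CRT1b (AT1G09210, chromosome 1), DER2.1 (AT4G21810, chromosome 4) and AT5G07340 (chromosome 5). Their probe sets were taken from the platform annotation by gene name, which gave 7 of the 8247 probe sets that are not controls. The 4 genes had been chosen with their ratios between the arrays known, so those ratios are a description and were not tested.

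The series concerns the action of nitric oxide, a gaseous signal, in plants. It holds 2 one-colour Affymetrix arrays hybridised with biotin-labelled RNA, 1 for each of the groups NOT and WDC. Both samples came from the Col-0 accession (stock N933) at growth stage 3.5, from plants stratified at 4 °C for 1 week and then grown on compost at 22 °C with 24 h of light a day. Per the labels, a sample stands for 4 pooled experiments with RNA of about 8 leaves in each, the design text speaks of 8 pooled plants, and the codes are not spelled out. No agent, dose or time is stated for either group, and the control that is mentioned is tied to neither code. The text on pooling and the control is attached to the NOT sample only. The tissue label names rosette leaves while the extraction text mentions seedlings, a conflict that the labels do not settle. Every ratio below is therefore NOT over WDC, with neither array called treated. With 1 array per group, group and array cannot be told apart, no p-value was computed, and precision is limited by the number of arrays.

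Proteins that enter the secretory pathway pass through the Sec61 channel into the ER, where chaperones bind them until they are folded. Calnexin and calreticulin are lectins that hold glycoproteins by their sugar chains, calnexin in the membrane and calreticulin in the lumen, where it also binds calcium. Proteins that do not fold are drawn back to the cytosol and degraded, a route known as ER-associated degradation. When unfolded proteins accumulate, membrane-bound sensors raise the transcription of many of these genes, a programme called the unfolded protein response.

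The 4 genes had brighter signals in the NOT array than in the WDC array on all 5 probe sets above the signal floor, by 1.51-fold to 2.15-fold. The floor was 12.5, the 40th percentile of all signals that are not controls, and 2 probe sets of CRT1b lay below it on both arrays. At least 1.5-fold higher in NOT were 5 of 5 measured probe sets of these genes, while over all 4753 measured probe sets the share was 5.87%. None of the 5 was lower, where 8.73% of all measured probe sets were at least 1.5-fold lower. At least 2-fold higher was 1 of 5, that of ATERDJ2B, beside a share of 1.41% over all. As the genes were picked from this contrast, nothing follows from these shares. The median log2 ratio of the 5 probe sets was 0.76, beside 0.00 over all measured probe sets, whose quartiles were -0.24 and 0.22.

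ATERDJ2B encodes a J-domain protein of the ER membrane related to yeast Sec63, which works with the Sec61 channel and recruits the luminal Hsp70 to incoming chains. Its single probe set, 15026_at, read 101.5 in NOT and 47.2 in WDC. The fold was 2.15, a log2 ratio of 1.1, and 44 of the 4753 measured probe sets had a higher one. ATERDJ2B thus had the highest ratio of the 4 genes. Its probe set lies in the second of 4 brightness classes counted from the dimmest. In that class 6.06% of probe sets were at least 1.5-fold higher in NOT.

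CRT1b, a calreticulin, was represented by 3 probe sets. On 13067_s_at the signals were 460.6 in NOT and 250.2 in WDC, a difference of 210.4 and a log2 ratio of 0.88. The mark s in this name stands for a probe set whose probes match similar sequences of other genes, so that related genes can add to the signal. The calreticulin genes CRT1a and CRT3 were not among the named probe sets, so they could not be set beside it. Probe set 13065_i_at gave 4.2 in NOT and 1.3 in WDC, and 13066_r_at gave 6.1 and 1.2. Both of these lay below the floor on both arrays and have no fold here. The NOT value was the higher of each pair, but below the floor the direction was not counted. The value for CRT1b therefore rests on a single probe set that is marked for shared sequence.

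AT5G07340 encodes a calnexin, the membrane-bound partner of calreticulin in the lectin cycle. Its probe set, 17924_at, gave 231.7 in NOT and 153.3 in WDC. The log2 ratio of 0.60 is a fold of 1.51, just inside the 1.5-fold line, and 269 measured probe sets had a higher ratio. It fell just outside the line with loess on mean signal (0.57) and with an offset added to both signals (0.56). The other calnexin gene, CNX1, was not among the named probe sets.

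DER2.1 encodes a derlin, a membrane protein that in yeast and mammals helps to move misfolded proteins out of the ER for degradation. It was the only one of the 4 genes with more than 1 measured probe set. Probe set 13591_at gave 443.1 in NOT against 266.4 in WDC, for a log2 ratio of 0.73. Probe set 13592_g_at, marked as common to a group of sequences, gave 552.9 in NOT against 325.5 in WDC, for a log2 ratio of 0.76. The log2 ratios of the pair differed by 0.03, which is small beside the median absolute difference of 0.17 over 116 pairs of probe sets that share a gene. Probe sets of 1 gene are read from the same RNA, so their closeness describes the probes and not variation between plants.

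**Figure D1:**
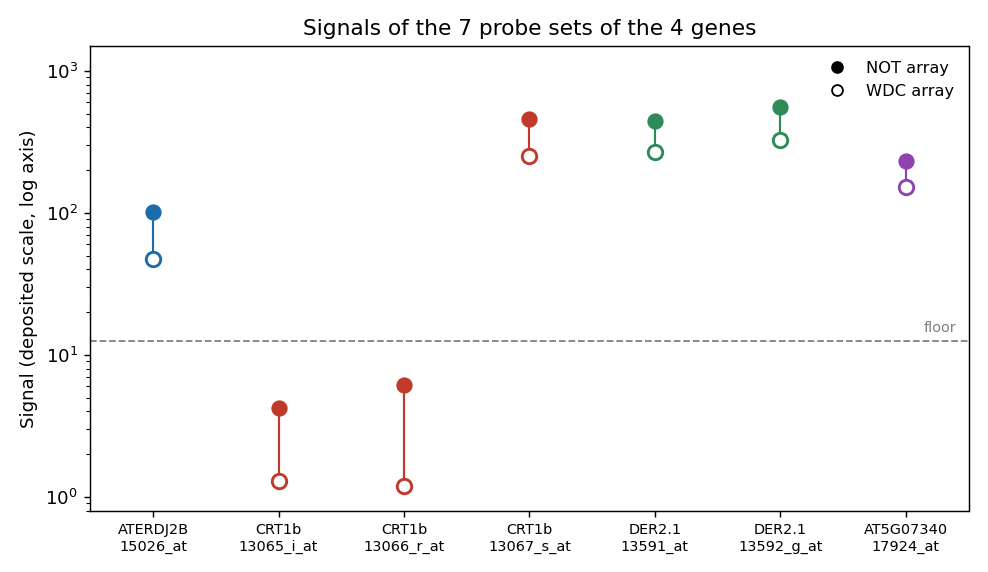
Signals of the 7 probe sets on the deposited scale (log axis), with filled circles for the NOT array, open circles for the WDC array and a dashed line at the floor of 12.5. The filled circle lies above the open one in every pair, and 2 probe sets of CRT1b lie below the floor on both arrays.

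The scatter between probe sets of 1 gene gave a measure of error within this pair of arrays. The 9 spiked-in control probe sets all had negative log2 ratios, from -0.28 to -0.03, so they hold an offset between the arrays as well as scatter. Over 93 genes with several measured probe sets, the pooled SD of the log2 ratio within a gene was 0.20, and 90% of pairs differed by less than 0.44. Ordered by ratio, the genes ran from ATERDJ2B over CRT1b and DER2.1 to AT5G07340, with gaps of 0.22, 0.12 and 0.17 between neighbours. Gaps as large occurred in 37.1%, 59.5% and 50.0% of pairs of probe sets that share a gene, so neighbours in this order did not differ beyond that scatter. Between the ends of the order, ATERDJ2B and AT5G07340, the gap was 0.51, and 9 of the 116 pairs lay as far apart. This scatter leaves out the variation between plants, which 1 array per group does not show.

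**Figure D2:**
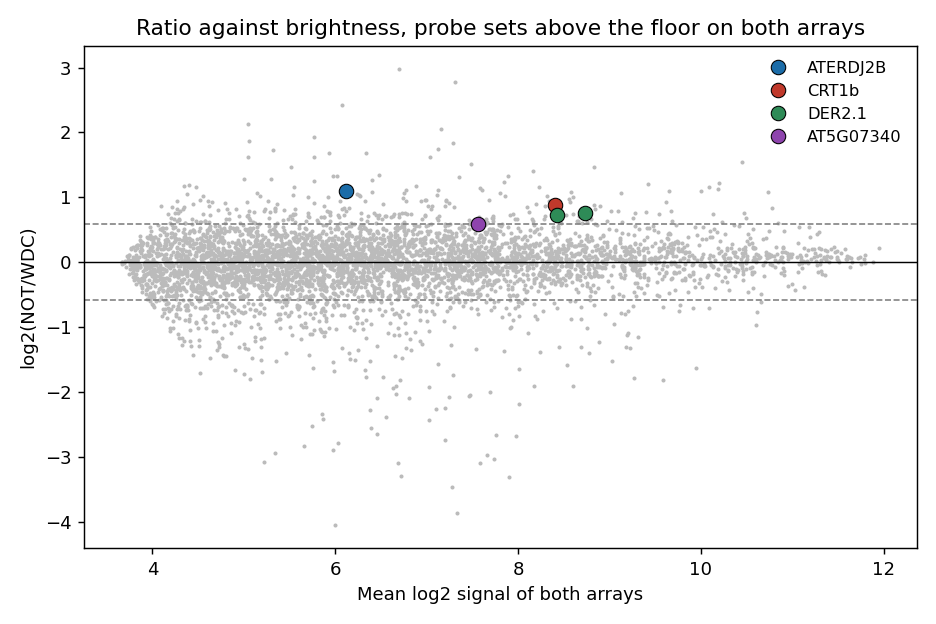
The log2 ratio of NOT over WDC (vertical) against the mean log2 signal of both arrays (horizontal) for 4753 probe sets above the floor, with dashed lines at 1.5-fold and the 5 measured probe sets of the 4 genes in colour. The coloured points lie on or above the upper dashed line, with ATERDJ2B at 2.15-fold and AT5G07340 at 1.51-fold.

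The rest of the ER folding machinery was less fully represented. Of 79 other genes listed for translocation, folding, glycan processing, disulfide formation, degradation and stress sensing, 9 had a named probe set and all 9 were measured. Past the 1.5-fold rule lay 0 of the 9 on the higher and 0 on the lower side in NOT, where 4.7% and 9.09% of the 1937 measured named genes were. Their median log2 ratio was 0.17, and 6 of 9 lay above 0, beside a median of -0.02 over all named genes, of which 47.7% lay above 0. Median and control scaling add a constant to every ratio, which brought the median of all measured probe sets to 0.10 and 0.14. With either of them 8 of 9 lay above 0, as BZIP17 and PDIL5-1 turned. Under quantile normalization or loess it was 7 of 9, as BZIP17 turned. With these genes and the 4 chosen ones together, 13 genes had a median of 0.24, of which 4 were higher by 1.5-fold or more and 0 lower. Those 4 are the genes chosen for their ratios, so neither this count nor the median of 0.24 is independent evidence of a direction for the pathway. In bulk tissue, fewer cells of a type and less RNA per cell cannot be told apart.

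Among the partners of ATERDJ2B at the channel, 3 Sec61 genes were measured, all within 1.5-fold. AT2G34250, an alpha subunit that forms the pore, gave 842.6 in NOT against 747.3 in WDC, for a log2 ratio of 0.17. AT4G24920, a gamma subunit, gave 1967.2 and 1669.8, a log2 ratio of 0.24. A further alpha-subunit gene, AT1G78720, was lower in NOT at 22.1 against 28.2, a log2 ratio of -0.35 from signals not far above the floor. ATERDJ2B was the member of this list with a ratio past 1.5-fold.

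The luminal Hsp70 class was represented by AT4G16660, a large Hsp70-like protein of the ER, as the BiP genes were not among the named probe sets. Its brighter probe set, 18140_at, gave 59.3 in NOT and 39.8 in WDC. That log2 ratio of 0.58, a 1.49-fold difference, lay just under the 1.5-fold line and 0.02 below that of AT5G07340. Its other probe set, 14487_at, gave 48.9 and 43.7, a log2 ratio of 0.16. The ratios of this pair lay 0.41 apart, and 15 of 116 pairs lay at least as far apart. Which probe set stands for the gene thus decided how near it came to the line, and their mean was 0.37.

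In glycan processing, AT2G01720, a ribophorin subunit of the enzyme that attaches sugar chains to new proteins, gave 460.7 in NOT against 368.6 in WDC, for a log2 ratio of 0.32. The lectin genes CRT1b and AT5G07340, given above, had larger ratios. PDIL5-1, a member of the protein disulfide isomerase family, gave 92.3 and 96.1, a log2 ratio of -0.06.

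In ER-associated degradation, DER2.2, the close relative of DER2.1, gave 59.7 in NOT and 50.4 in WDC on a probe set of its own. Its log2 ratio of 0.24 was 0.52 below that of DER2.1, which was chosen with its ratio known. As far apart lay 9 of 116 pairs of probe sets that share a gene, but those pairs were not chosen by ratio. The share therefore does not show whether the derlins differ, which was not tested. OS9, a lectin that picks out misfolded glycoproteins, gave 19.9 and 18.4, a log2 ratio of 0.11 from signals near the floor. BZIP17, a membrane-tethered transcription factor of the stress response, gave 15.7 and 15.9, a log2 ratio of -0.02, also near the floor. The other sensors and factors listed, among them the kinase IRE1 and the transcription factors bZIP28 and bZIP60, were not among the named probe sets.

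Lists for the next step of the secretory pathway and for cytosolic chaperones were set beside these genes without a test. Of 25 listed genes of vesicle traffic between ER and Golgi, 6 were measured and 0 lay past 1.5-fold on either side, beside 4.7% and 9.09% of named genes, with a median log2 ratio of 0.23 and a range from -0.05 to 0.41. In the cytosol 2 of 17 listed genes were measured, both with log2 ratios below 0, and 1 lay past 1.5-fold on the lower side. A further listed gene, Hop3, gave 3 in NOT and 0.8 in WDC, below the floor on both arrays, and has no ratio here. Hsp70-2, a cytosolic Hsp70, stood at 307.2 in NOT against 882.9 in WDC (log2 ratio -1.52), and the related AT3G09440 gave 2360.9 and 2628.3, a log2 ratio of -0.15. Their other probe sets, both marked for shared sequence, had log2 ratios of -1.30 and -0.61. The -0.15 of AT3G09440 lay inside the quartiles of all measured probe sets, -0.24 and 0.22. Among probe sets without that mark, the lower direction thus rests on Hsp70-2. ATERDJ2B, the J protein of the ER membrane, was chosen with its ratio known, and Hsp70-2 is named because it lay past 1.5-fold. No contrast between the compartments can therefore be read from these genes, and none was tested.

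**Figure D3:**
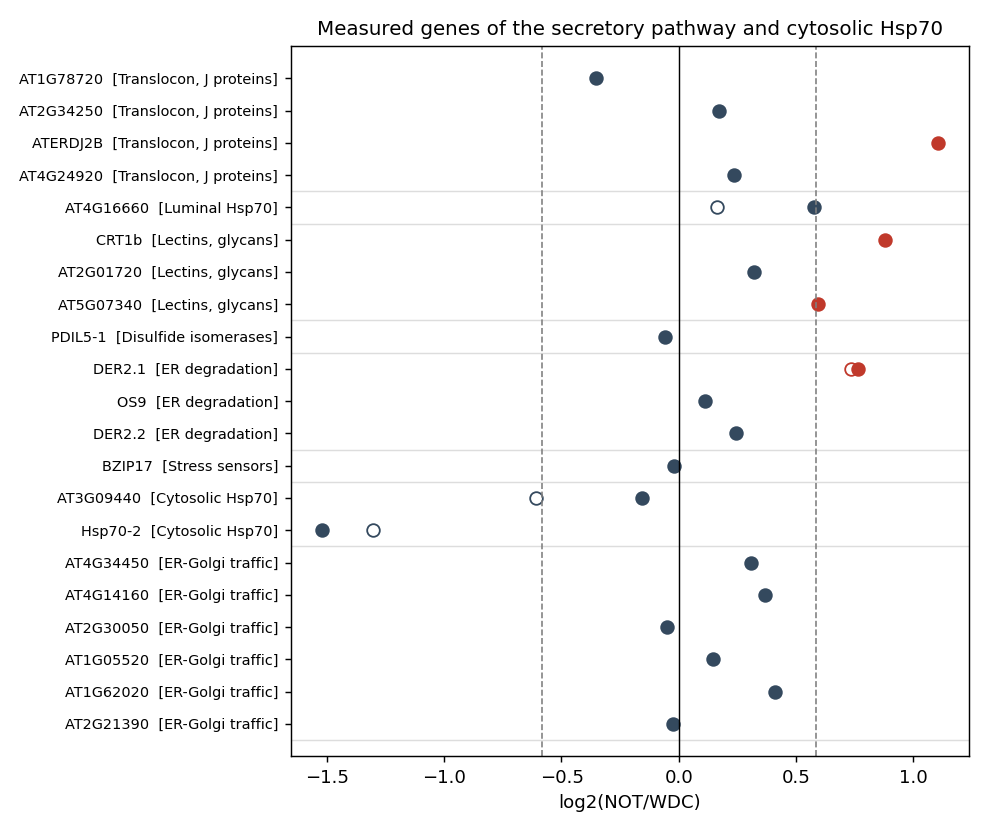
The log2 ratio of NOT over WDC for each measured gene of the ER lists, ER-Golgi traffic and cytosolic Hsp70, with the brightest probe set filled, other probe sets open, and the 4 chosen genes in red. The red points lie past the 1.5-fold line on the right, AT4G16660 at 0.58 touches it, and Hsp70-2 at -1.52 lies farthest to the left.

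Each of the 4 genes was also matched to the named genes most like it, taken as those with the closest log2 ratio among genes whose mean signal was within 1.5-fold, leaving out the 4 genes themselves. For ATERDJ2B, out of 470 genes of like brightness, these were AT4G00700 (log2 ratio 1.16) and AT4G14020 (1.02). For CRT1b, out of 198 genes, they were AT1G78830 (0.86) and AT2G05540 (0.73). AT2G05540 was also among the closest to DER2.1, together with BGLU25 (0.75), a member of the beta-glucosidase family, out of 181 genes. For AT5G07340, out of 288 genes, they were AT4G14390 and AT1G78890, with log2 ratios of 0.60 and 0.59. With 2 arrays, a likeness is a match of 1 ratio and of brightness only.

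Chromosomal position was not used to choose the genes. ATERDJ2B and DER2.1 lie on the same chromosome with 69 protein-coding genes between them in the RefSeq order, and the other genes lie on chromosomes of their own. Within 10 protein-coding genes on either side, 8 named neighbours were measured, of which 1 lay past 1.5-fold on the higher side and 0 on the lower side, beside 4.7% and 9.09% of named genes. With median, quantile, loess and control scaling 2 of the 8 were past the line on the higher side. Of all measured probe sets 9.29%, 7.27%, 5.79% and 10.6% were, beside 5.87% as deposited. These shares are of probe sets and not of named genes. The log2 ratios of the 8 neighbours ran from -0.42 to 0.73 with a median of 0.30, and 7 of 8 were above 0. Over all named genes the median was -0.02 and 47.7% lay above 0. Signals of AT1G09230, AT1G09280, AT1G09300, AT4G21720 and QQT2 were 16.9 to 31.2, not far above the floor, and QQT2 has a mark counted as shared sequence. With the 60th percentile floor 3 neighbours were measured, 2 of them above 0. The neighbour past 1.5-fold was AT5G07360, which lies 2 genes from AT5G07340 and gave 79.2 in NOT against 47.6 in WDC (log2 ratio 0.73), with no mark for shared sequence. Next came AT1G09230, 2 genes from CRT1b, with 31.2 and 21.1, a log2 ratio of 0.56. The genes directly beside CRT1b and DER2.1, AT1G09200 and QQT2, stood at 0.26 and 0.27. The lowest was AT4G21110, 7 genes from ATERDJ2B, at -0.42, so the gene with the highest ratio of the 4 had its only neighbour measured in this window on the other side of 0.

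**Figure D4:**
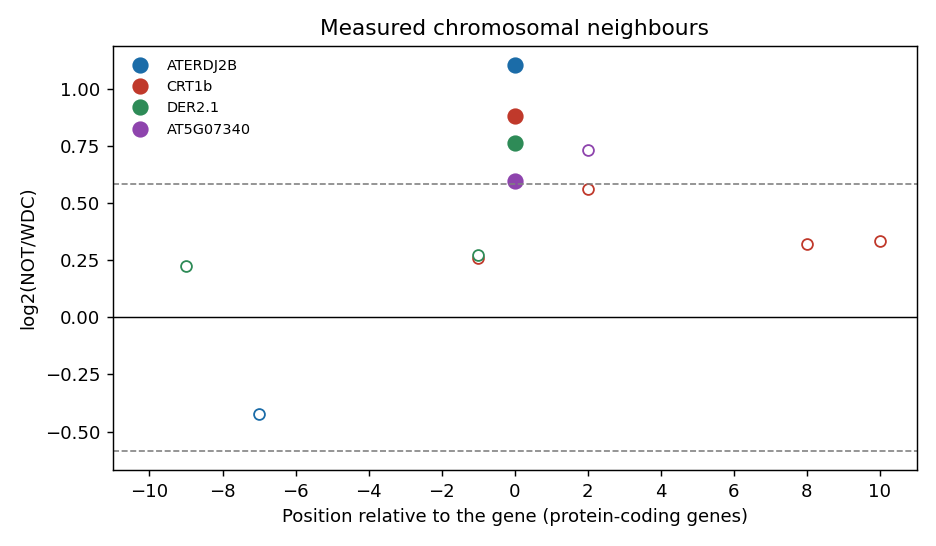
The log2 ratio of NOT over WDC (vertical) against position in the order of protein-coding genes, counted from each of the 4 genes (horizontal), with the genes themselves filled at position 0 and their measured neighbours open in the same colour. Of the 8 neighbours 7 lie above 0, and AT5G07360 at 0.73 lies above the dashed 1.5-fold line.

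Controls and tissue markers bear on the scale of these ratios. The 9 spiked-in hybridisation controls had a median log2 ratio of -0.14, and scaling the arrays to them moved the median of all probe sets to 0.14 and the 4 genes to between 0.74 and 1.25. Their order was the same under each of the 8 alternatives in which they were measured, with CRT1b not measured when shared probe sets were left out. Leaf photosynthesis markers lay well above the floor, with 7 of 36 listed genes measured at signals from 304.1 to 3135.3 in NOT and log2 ratios from -0.30 to 0.10, while the 12 listed markers of seed, flower and root had no named probe set here. For GAPDH, the signal of the 3′ over the 5′ probe set, a sign of RNA quality, was 1.24 in NOT and 1.19 in WDC. The part of RNA quality in the ratios was not tested.

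**Figure D5:**
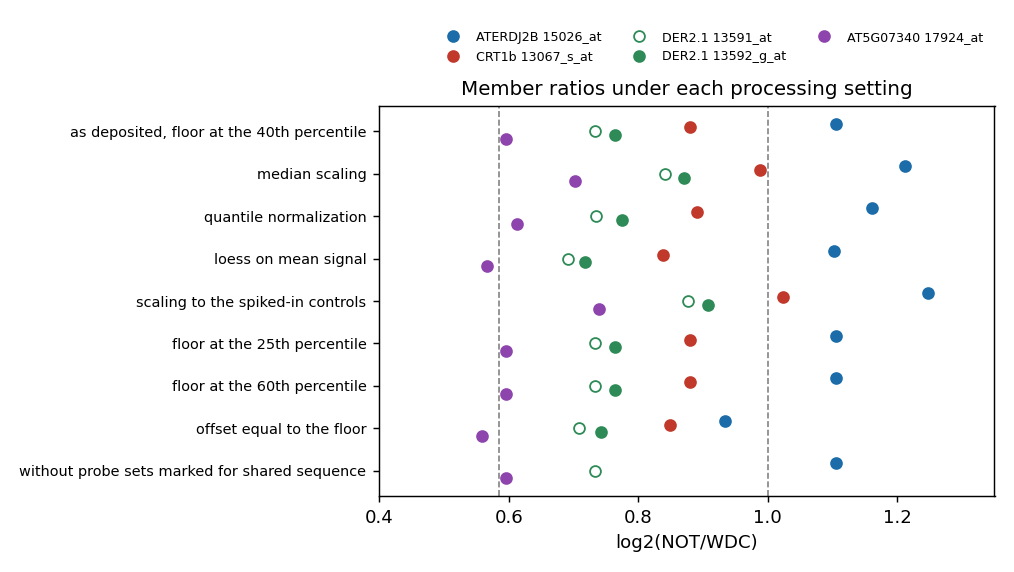
The log2 ratio of NOT over WDC of the 5 measured probe sets (horizontal) under each processing setting (vertical), with dashed lines at 1.5-fold and 2-fold. The order of the genes stays the same in each row in which they appear, although only quantile normalization, loess and the offset could change it. ATERDJ2B ranges from 0.93 to 1.25, and AT5G07340, from 0.56 to 0.74, crosses the 1.5-fold line under loess and the offset.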

How the data were processed

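The deposited table holds linear intensity values, 1 for each array, of 8297 probe sets, of which 50 controls were left out. The authors' scaling was inferred from a trimmed mean (2% cut from each tail) of 100.1 on either array. The sources used here do not name the summarising software. Probe sets were named through GEO's platform annotation, with 3794 naming 1 gene, 70 several and 4383 none, and 3784 of the first were matched to RefSeq (TAIR10.1) for symbols and gene order.

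A log2 ratio without offset was taken for probe sets above the floor on both arrays, and a gene was given by its brightest probe set. Alternatives were 4 scalings (median, quantile, loess with a span of 0.4, spiked-in controls) and a lower and a higher floor (25th, 60th percentile). Others were an offset equal to the floor, removal of probe sets marked for shared sequence, and averaging the probe sets of each gene. The mark was read from a letter in the probe set name, s or g but also f, i, r or x, all counted alike. Named were all probe sets of the 4 genes, every ER-list gene with a named probe set, comparison-list genes past 1.5-fold (AT3G09440 was added after its value was seen, as were the neighbours), and the 2 closest genes by ratio. The genes and lists were chosen with earlier results of these data known. The ratio script was tested on simulated data. Python 3.11.15, numpy 2.4.6, pandas 2.3.3, statsmodels 0.14.6 and matplotlib 3.10.9 were used.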

Additional observations from a re-analysis of the deposited data

How the results depend on the processing

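No paired analysis was possible because each group has 1 array. All 5 measured probe sets of the 4 genes stayed higher in NOT under every alternative in which they were measured. Of 158 alternative values, 139 moved by less than a limit and 19 by more. The limit was the scatter of probe sets within a gene, or 1.5 times for counts. None reversed, but a count has no direction that could reverse. Many of the 139 had little room to move. Another floor, or leaving out marked probe sets, returns the same ratio for each of the 5 that stays measured. Median and control scaling shift each ratio by a constant smaller than that scatter. The tally is therefore a weak check. Those at least 2-fold higher among the 4 genes' probe sets were 2 with control scaling, where CRT1b reached 1.02, and 0 with the offset, where ATERDJ2B stood at 0.93. Those at least 1.5-fold higher were 3 without shared probe sets, which leaves out 2 of the 5 by construction. Among the other ER genes, 1 (AT4G16660) was at least 1.5-fold higher with median scaling, quantile normalization, loess and control scaling (0.68, 0.64, 0.59 and 0.72), and it stood at 0.16 with the 60th percentile floor, which removes its brighter probe set. Over all probe sets, the 1.5-fold counts of 279 higher and 415 lower (40.2% higher) became 441 and 320 with median scaling (58%), 502 and 287 with control scaling (63.6%), 414 and 625 with the 25th and 182 and 211 with the 60th percentile floor. The 2-fold counts of 67 and 158 (29.8% higher) became 94 and 130 (42.0%) with median and 103 and 123 (45.6%) with control scaling, 106 and 242 with the lower and 43 and 81 with the higher floor, and 43 and 94 with the offset. Median and control scaling add a constant to every ratio, quantile normalization and loess a shift that varies with the signal, floors admit other probe sets, and no other cause was tested. Signal near the floor limits OS9, BZIP17 and AT1G78720, and the neighbours AT1G09230, AT1G09280, AT1G09300, AT4G21720 and QQT2.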
